A study of Mus musculus with 12 samples.

Results

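The SLC25 genes encode the mitochondrial carrier family, and the genes described here are the 34 of 11022 rows of the deposited expression table whose symbol begins with Slc25a. The symbol alone decides which genes are members. The samples were 12 cultures of P14 cytotoxic T lymphocytes (CTL), which are mouse CD8+ T cells carrying the LCMV-P14 transgenic T cell receptor (TCR), from adult female mice. All cultures had been activated for 48 h, expanded for 5 further days in interleukin 2 and kept in interleukin 2 at 20 ng/mL. In 3 cultures each the CTL were left unstimulated, retriggered for 4 h with 100 ng/mL of gp33-41 peptide (TCR), retriggered in the presence of 10 µM IC87114, which blocks the p110δ form of the lipid kinase PI3K (PI3Kdi), or retriggered in the presence of 2 µM PD184252, an inhibitor of the kinase MEK (MEKi), which activates ERK1/2. Per the study's methods the CTL came from 3 mice, which gave the 3 biological replicates. Every culture carries the same transgenic receptor, so the groups describe 1 antigen specificity, and per the study's methods DMSO was the vehicle control. Messenger RNA was measured by RNA sequencing and is given as FPKM, fragments per kilobase of exon scaled to a common number of reads, which the authors scaled between libraries by TMM. FPKM values are single cultures or mean ± SD (n = 3). Log2 differences are given ± the standard error of the difference from the fitted model, not an SD.

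Mitochondrial carriers are small proteins of the inner mitochondrial membrane that exchange a metabolite of the matrix for one of the cytosol, or carry it together with protons. They move ADP and ATP, phosphate, citrate, malate, amino acids, nucleotides, cofactors and iron across a membrane that is otherwise closed to them. A few members sit elsewhere, such as Slc25a17 in peroxisomes and Slc25a46 in the outer mitochondrial membrane. Activated T cells are known for raised mitochondrial biosynthesis and one-carbon metabolism, in which citrate, aspartate, folate and glycine cross this membrane.

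The CTL markers were high in every library. Cd8a lay between 213 and 430 FPKM and Gzmb between 8279 and 13582 FPKM over the 12 cultures, and 5 of 5 CTL markers were in the table. Of the markers of other cells, 0 of 3 for B cells and 0 of 9 for the red cell lineage had a row, Itgax stayed at or under 0.75 FPKM and Cd68 between 4.88 and 8.44 FPKM. Cd4 was at 0.28 to 3.65 FPKM and its lowest value in TCR or PI3Kdi cultures, 1.96 FPKM, lay above all unstimulated and MEKi cultures. Klrb1c, 1 of 2 NK cell markers listed, was at 5.39 ± 0.826 FPKM in unstimulated and 1.79 ± 0.142 FPKM in TCR cultures. The other NK cell marker, Ncr1, had no row. Foxp3 of the CD4 T cell list and Lyz2, Csf1r and Adgre1 of the myeloid list had no row either. Whether other cells were present, and their part in the results, was not tested. The estimated depth was between 7880000 and 13400000 reads per library, at which 3 reads in 1 kb of exon correspond to 0.224 to 0.381 FPKM. None of the members was listed at 0 in any culture, and Slc25a35 came closest, at about 3 reads in its lowest library. Fewer cells of a kind and less RNA per cell cannot be told apart in bulk cultures.

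Promoter sequence from RefSeq (GRCm38.p6) was matched for 27 of the 34 genes. The stretches of 250 bases before the annotated start are shown for 4 members. The inhibitors moved Slc25a1 and Slc25a39 in opposite directions on the authors' scale. With libraries rescaled to the same FPKM sum, the fall of Slc25a39 with the PI3K inhibitor did not pass the test. Slc25a33 had the highest log2 difference after peptide, and the fall of Slc25a24 after peptide had the smallest adjusted p. Capitals mark CACGTG (E-box) and GCGTGGGCG (EGR motif, or its reverse complement CGCCCACGC).
Slc25a1, chr16:17928220-17928469, minus strand: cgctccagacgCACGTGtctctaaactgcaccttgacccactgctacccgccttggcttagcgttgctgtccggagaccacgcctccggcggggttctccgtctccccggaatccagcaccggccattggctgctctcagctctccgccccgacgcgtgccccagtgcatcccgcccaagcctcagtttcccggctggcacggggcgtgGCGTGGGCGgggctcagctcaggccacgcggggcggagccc
Slc25a39, chr11:102407518-102407767, minus strand: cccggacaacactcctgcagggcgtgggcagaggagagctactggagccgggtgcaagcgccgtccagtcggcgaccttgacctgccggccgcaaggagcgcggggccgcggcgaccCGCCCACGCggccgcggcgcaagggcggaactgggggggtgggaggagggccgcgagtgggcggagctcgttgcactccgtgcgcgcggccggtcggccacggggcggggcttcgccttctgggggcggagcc
Slc25a33, chr4:149774268-149774517, minus strand: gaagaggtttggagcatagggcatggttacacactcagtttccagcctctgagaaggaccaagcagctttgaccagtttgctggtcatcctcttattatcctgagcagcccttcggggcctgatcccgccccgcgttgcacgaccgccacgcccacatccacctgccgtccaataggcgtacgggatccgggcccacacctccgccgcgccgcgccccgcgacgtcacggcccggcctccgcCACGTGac
Slc25a24, chr3:109122899-109123148, plus strand: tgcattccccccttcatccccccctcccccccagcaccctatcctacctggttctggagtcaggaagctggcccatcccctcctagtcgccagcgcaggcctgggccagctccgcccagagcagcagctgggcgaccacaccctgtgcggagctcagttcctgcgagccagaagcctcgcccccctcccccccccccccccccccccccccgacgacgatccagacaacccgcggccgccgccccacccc
The E-box in Slc25a1 begins 239 bases and the EGR motif 41 bases before the start, and they do not overlap. In Slc25a39 the EGR motif, on the other strand, begins 133 bases before the start, and in Slc25a33 an E-box begins 8 bases before it. Searched on both strands from 250 bases before to 50 bases after the start, GCGTGGGCG was found in 3 of the 27 members (Slc25a1, Slc25a14 and Slc25a39), against 1.52% of the 8332 table genes with a promoter. CACGTG was found in 6 of 27, against 12.2%, and CCGGAAG (ETS motif) in 6 of 27, against 21.8%. The other motifs searched were CRE in 2 of 27, against 3.83%, AP-1 in 1 of 27, against 4.36%, and NRF1 in 0 of 27, against 2.5%. In Slc25a39 27 and in Slc25a33 10 of the printed bases lie in an annotated exon of the gene. These matches are letters in a window, and no binding was measured.

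In unstimulated CTL the levels in the family spanned a wide range. Slc25a5, the ADP/ATP carrier ANT2, was highest at 539 ± 10.9 FPKM, followed by Slc25a3, the phosphate carrier, at 267 ± 3.43 FPKM and Slc25a4, the ADP/ATP carrier ANT1, at 182 ± 15 FPKM. These 3 genes made up 71.6 to 72.6% of the summed FPKM of the family in unstimulated cultures and 70.4 to 70.6% with the MEK inhibitor, and they kept ranks 1 to 3 in every group. A further 14 members lay between 10 and 100 FPKM, 15 between 1 and 10 FPKM, and Slc25a29 and Slc25a47 under 1 FPKM. The summed FPKM of the 34 genes ranged over 1352 to 1396 in unstimulated, 1469 to 1564 in TCR, 1374 to 1470 in PI3Kdi and 1373 to 1412 in MEKi cultures. As a share of all FPKM in the table the order was the opposite, with 0.282 to 0.291% in unstimulated and 0.233 to 0.242% in TCR cultures. Summed over the whole table, FPKM reached higher totals in TCR than in unstimulated cultures, so a small change after peptide depends on the scale.

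**Figure D1:**
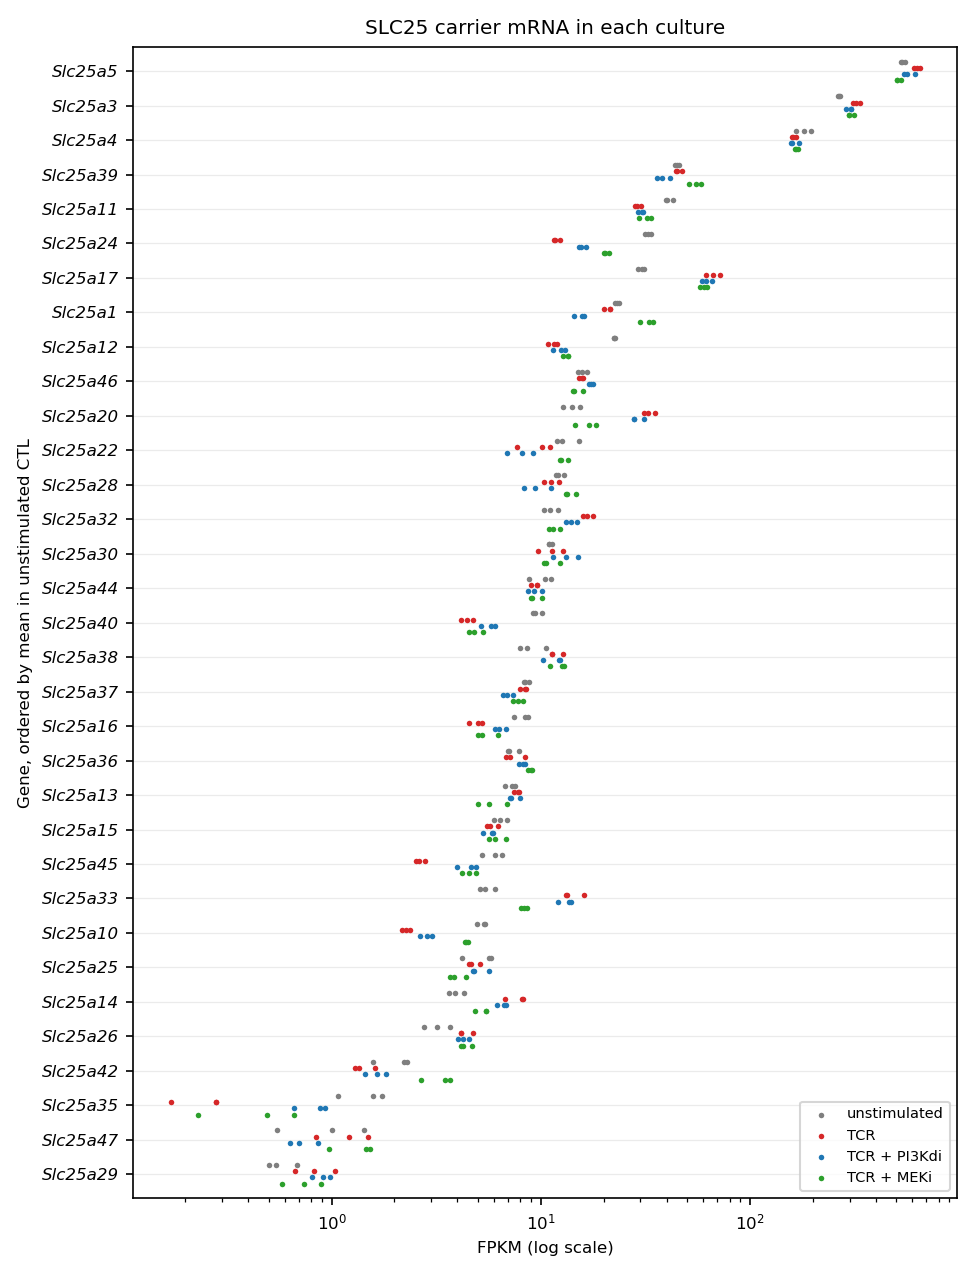
FPKM (log axis) of 33 Slc25a genes, 1 point per culture, coloured by group and ordered by the mean in unstimulated CTL. Slc25a5, Slc25a3 and Slc25a4 lie above 100 FPKM in all 12 cultures, and Slc25a35 has the lowest values, in TCR cultures.

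TCR retriggering for 4 h moved single carriers both up and down. Slc25a33, Slc25a20 and Slc25a17 rose more than 2-fold, and Slc25a35, Slc25a24, Slc25a10, Slc25a45 and Slc25a40 fell more than 2-fold at an adjusted p under 0.05 (limma on log2(FPKM + 0.1) over all genes, used throughout). Of all genes tested 20.0% were called by this rule, 8.87% higher and 11.1% lower, beside 8 of 34 carriers. At an adjusted p under 0.05 and any size, 11 members were higher and 11 lower and 12 did not pass, where 68.6% of all genes passed, 33.6% higher and 34.9% lower. The median log2 difference was -0.03 over the members and -0.01 over all genes. Where each library was rescaled to the same FPKM sum (the TPM scale), the median of all genes moved to -0.41 and the split of the members that passed became 4 higher and 24 lower. In 20 members the unstimulated and TCR cultures did not overlap, where 71.2% of all genes did not.

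**Figure D2:**
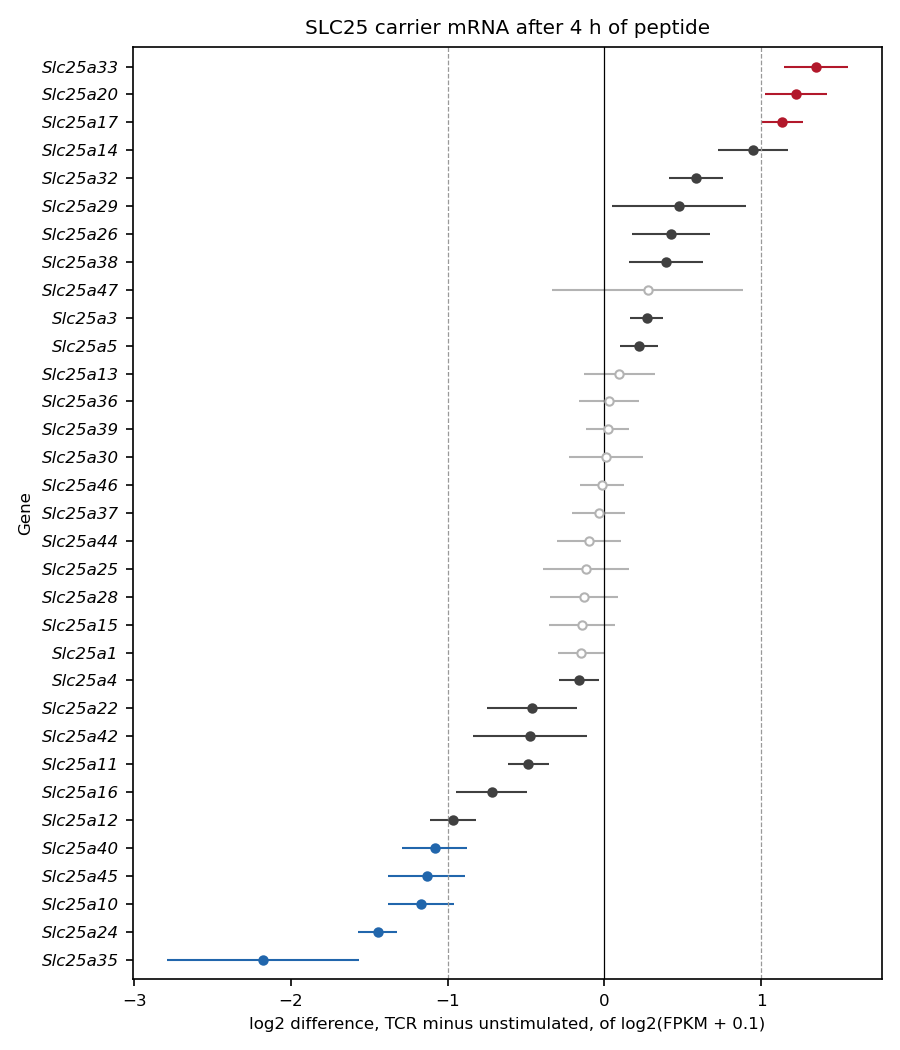
Log2 difference of log2(FPKM + 0.1), TCR minus unstimulated, for 33 genes, with 95% confidence intervals. Filled points passed an adjusted p of 0.05 and coloured points also exceed 2-fold (dashed lines), red for higher and blue for lower; on the TPM scale the filled points of Slc25a5, Slc25a3 and Slc25a38, to the right of 0 here, lie below 0 and so do Slc25a13, Slc25a30, Slc25a36, Slc25a39 and Slc25a47, which did not pass here.

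Among the carriers of nucleotides and cofactors, 5 of 10 rose and 3 fell after peptide, where 33.6% of all genes were higher and 34.9% lower. Rescaled to TPM, Slc25a36 and Slc25a39 also passed as lower, at -0.38 (adjusted p = 0.00354) and -0.39 (adjusted p = 1.49e-05). Slc25a33 was at 6.07, 5.42 and 5.1 FPKM in the unstimulated cultures, 16.2, 13.4 and 13.3 with peptide, 14, 13.7 and 12.1 with peptide and IC87114, and 8.04, 8.63 and 8.33 with peptide and PD184252. Slc25a33 carries pyrimidine nucleotides and lies at chr4:149744036-149774277 (GRCm38, minus strand). Its TCR cultures were all above its unstimulated cultures, with a log2 difference of 1.35 ± 0.10 (adjusted p = 9.01e-09), 2.58-fold between the means. Of its 100-base transcript stretches 10.2% also occur in an annotated antisense gene, and whether the counting used the strand is not stated. Slc25a17 was at 29.3, 31.1 and 30.7 FPKM in the unstimulated cultures, 71.9, 66.7 and 61.7 with peptide, 62, 65.7 and 59.3 with peptide and IC87114, and 62.4, 60.2 and 57.7 with peptide and PD184252. Slc25a17, at chr15:81318911-81360812, is the peroxisomal carrier of coenzyme A, FAD and NAD. It rose 2.2-fold, by 1.13 ± 0.06 (adjusted p = 5.25e-10) on the log2 scale, and all 9 retriggered cultures lay above the 3 unstimulated ones. On the TPM scale the rise of Slc25a33, Slc25a20 and Slc25a17 was smaller than 2-fold, at 0.94, 0.81 and 0.72 on the log2 scale, and still past the test.

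In the same group the folate and FAD carrier Slc25a32 rose from 11.2 ± 0.813 to 16.8 ± 1.02 FPKM, a log2 difference of 0.58 ± 0.08 (adjusted p = 1.22e-05) that did not pass on the TPM scale, at 0.17 (adjusted p = 0.0835). Slc25a26, which imports S-adenosylmethionine, rose by 0.43 ± 0.12 (adjusted p = 0.00465) on the log2 scale, where the TPM value was 0.02 (adjusted p = 0.863). The other direction was taken by Slc25a40, by Slc25a16 and by the coenzyme A carrier Slc25a42, which did not pass under quantile normalisation (adjusted p = 0.0518). Slc25a40 was at 9.19, 9.38 and 10.2 FPKM in the unstimulated cultures, 4.17, 4.46 and 4.77 with peptide, 5.21, 6.03 and 5.76 with peptide and IC87114, and 4.56, 4.81 and 5.31 with peptide and PD184252. Slc25a40 and its paralogue Slc25a39 carry glutathione into mitochondria. Slc25a40 fell 2.14-fold (log2 difference -1.08 ± 0.10, adjusted p = 1.10e-07) and its unstimulated cultures were above all 9 others, whereas Slc25a39 differed by 0.02 (95% confidence interval -0.11 to 0.16). The ratio of Slc25a39 to Slc25a40 was 4.42 to 4.98 in unstimulated and 9.27 to 11.4 in TCR cultures, which did not overlap.

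Slc25a20, the carnitine and acylcarnitine carrier that brings long-chain fatty acids into mitochondria for oxidation, rose 2.34-fold. Slc25a20 was at 15.4, 12.8 and 14.2 FPKM in the unstimulated cultures, 35.4, 31.2 and 32.7 with peptide, 27.9, 31.2 and 28 with peptide and IC87114, and 18.4, 17.1 and 14.5 with peptide and PD184252. The log2 difference after peptide was 1.23 ± 0.09 (adjusted p = 1.78e-08). The gene lies at chr9:108662088-108684641 on the plus strand. Of its partner enzymes, Cpt1a and Cpt2, the carnitine palmitoyltransferases, fell by 0.26 and 0.36 on the log2 scale, and Crat, the carnitine acetyltransferase, fell by 1.02.

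Among the carriers of phosphate, Slc25a24 fell and Slc25a3 rose slightly. Slc25a24 was at 31.5, 32.6 and 33.7 FPKM in the unstimulated cultures, 11.6, 11.8 and 12.4 with peptide, 15.3, 15.6 and 16.4 with peptide and IC87114, and 20.2, 20.4 and 21.1 with peptide and PD184252. Slc25a24 exchanges ATP-Mg for phosphate and lies at chr3:109123149-109168457. The 4 groups did not overlap in any pair, and after peptide the level fell 2.74-fold (log2 difference -1.45 ± 0.06, adjusted p = 1.60e-11). Its paralogue Slc25a25 differed by -0.12 (95% confidence interval -0.39 to 0.16) and did not pass, whereas its TPM value of -0.52 (adjusted p = 0.00306) did. Slc25a3 rose from 267 ± 3.43 to 323 ± 13.2 FPKM, by 0.27 ± 0.05 (adjusted p = 0.000178), but differed by -0.14 when rescaled to TPM and by -0.03 under quantile normalisation.

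The ADP/ATP carriers, among the most abundant members, differed little after peptide on the authors' scale. Slc25a5 was at 531, 536 and 552 FPKM in the unstimulated cultures, 649, 629 and 609 with peptide, 617, 567 and 546 with peptide and IC87114, and 507, 530 and 505 with peptide and PD184252. Slc25a4 was at 166, 183 and 196 FPKM in the unstimulated cultures, 167, 160 and 160 with peptide, 172, 157 and 159 with peptide and IC87114, and 165, 170 and 166 with peptide and PD184252. Slc25a5 differed by 0.22 ± 0.06 (adjusted p = 0.00281) after peptide on the scale of the authors, and -0.19 when rescaled to TPM or -0.23 by quantile normalisation, so its direction depends on the scaling. Slc25a4 differed by -0.16 ± 0.06 (adjusted p = 0.0283), with overlapping cultures, and by -0.57 (adjusted p = 3.19e-08) on the TPM scale. The ratio of Slc25a5 to Slc25a4, which does not depend on a scaling factor for the library, was 2.81 to 3.19 in unstimulated, 3.79 to 3.94 in TCR, 3.44 to 3.61 in PI3Kdi and 3.04 to 3.12 in MEKi cultures. The ranges of TCR and PI3Kdi cultures lay above those of the unstimulated and MEKi cultures. Of the 100-base stretches of Slc25a5 8.33% are shared with other annotated genes, Gm5560 and Gm5529.

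The dicarboxylate and tricarboxylate carriers all had lower means after peptide, and 2 of 3 passed the test. Slc25a10 was at 5.41, 4.96 and 5.33 FPKM in the unstimulated cultures, 2.36, 2.27 and 2.17 with peptide, 2.65, 3.03 and 2.86 with peptide and IC87114, and 4.34, 4.49 and 4.4 with peptide and PD184252. Slc25a10 exchanges malate or succinate for phosphate and fell 2.31-fold (log2 difference -1.17 ± 0.10, adjusted p = 6.04e-08), the TCR cultures being the lowest of all groups. Slc25a11, the 2-oxoglutarate and malate carrier of the malate-aspartate shuttle, fell from 40.9 ± 1.86 to 29.2 ± 1.02 FPKM (log2 difference -0.48 ± 0.06, adjusted p = 5.22e-06). Slc25a1 differed by -0.15 ± 0.07 (adjusted p = 0.0629) and did not pass the test, whereas its TPM value of -0.56 (adjusted p = 2.90e-06) did.

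Of the 7 amino acid carriers 2 rose and 2 fell, none by more than 2-fold, on the authors' scale. Among all genes 33.6% were higher and 34.9% lower. Slc25a12 was at 22.4, 22.4 and 22.6 FPKM in the unstimulated cultures, 11.6, 12 and 10.8 with peptide, 11.5, 13 and 12.5 with peptide and IC87114, and 12.8, 13.5 and 13.6 with peptide and PD184252. Slc25a12 and Slc25a13 are the paralogous aspartate and glutamate carriers of the malate-aspartate shuttle. Slc25a12 fell 1.96-fold, with a log2 difference of -0.97 ± 0.07 (adjusted p = 7.90e-09) that lay just inside 2-fold and reached -1.38 on the TPM scale. Slc25a13 was at 6.76, 7.31 and 7.55 FPKM in the unstimulated cultures, 7.42, 7.78 and 7.9 with peptide, 7.11, 7.95 and 7.19 with peptide and IC87114, and 5.04, 6.93 and 5.68 with peptide and PD184252. Slc25a13 differed by 0.10 (95% confidence interval -0.13 to 0.32), but passed as lower on the TPM scale, at -0.31 (adjusted p = 0.0197). The ratio of Slc25a12 to Slc25a13 was 2.99 to 3.32 in unstimulated and 1.37 to 1.57 in TCR cultures. The glutamate carrier Slc25a22 fell by 0.46, from 13.3 ± 1.73 to 9.66 ± 1.76 FPKM (adjusted p = 0.00668). The glycine carrier Slc25a38 rose by 0.39 (adjusted p = 0.00561), with a difference of -0.01 on the TPM scale, and Slc25a29, a carrier of basic amino acids, was at 0.573 ± 0.0945 and 0.843 ± 0.186 FPKM with overlapping cultures (adjusted p = 0.0458) and did not pass on the TPM scale (adjusted p = 0.614). Slc25a15, the ornithine carrier, and Slc25a44, the carrier of branched-chain amino acids, did not pass in this contrast on the authors' scale.

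Neither of the mitoferrins, the iron carriers, passed the test after peptide. Slc25a28 was at 11.8, 13 and 12.1 FPKM in the unstimulated cultures, 11.2, 12.3 and 10.4 with peptide, 9.44, 8.29 and 11.2 with peptide and IC87114, and 13.4, 13.2 and 14.7 with peptide and PD184252. Slc25a37 was at 8.81, 8.39 and 8.36 FPKM in the unstimulated cultures, 8.45, 8.52 and 7.94 with peptide, 6.58, 7.4 and 6.88 with peptide and IC87114, and 8.2, 7.41 and 7.75 with peptide and PD184252. The log2 differences were -0.13 for Slc25a28 (95% confidence interval -0.35 to 0.09) and -0.04 for Slc25a37 (-0.21 to 0.13), and -0.54 (adjusted p = 0.000369) and -0.45 (adjusted p = 0.00049) on the TPM scale. Slc25a14, an uncoupling-like member, rose from 3.95 ± 0.337 to 7.71 ± 0.835 FPKM (log2 difference 0.95 ± 0.10, adjusted p = 1.28e-06), while Slc25a30 of the same group differed by 0.01.

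Of the remaining members, Slc25a45 and Slc25a35 fell and Slc25a46 and Slc25a47 did not pass. Rescaled to TPM, Slc25a46 passed as lower, at -0.43 (adjusted p = 6.73e-05). Slc25a45 was at 6.07, 6.54 and 5.22 FPKM in the unstimulated cultures, 2.8, 2.53 and 2.61 with peptide, 3.98, 4.63 and 4.9 with peptide and IC87114, and 4.91, 4.22 and 4.54 with peptide and PD184252. Slc25a45 fell 2.25-fold (log2 difference -1.13 ± 0.12, adjusted p = 5.03e-07), and its TCR cultures were below all others. Slc25a35 was at 1.75, 1.57 and 1.07 FPKM in the unstimulated cultures, 0.28, 0.17 and 0.28 with peptide, 0.93, 0.66 and 0.88 with peptide and IC87114, and 0.49, 0.23 and 0.66 with peptide and PD184252. For Slc25a35 the log2 difference was -2.18 ± 0.29 (adjusted p = 7.85e-06), the lowest of the family. It rests on about 3 reads in the lowest library, and 1151 exon bases of the gene overlap Rangrf on the other strand, which was at 8.89 ± 1.06 FPKM in unstimulated and 12.3 ± 1.3 FPKM in TCR cultures. Reads of the 2 genes cannot be told apart there if the counting ignored strand. With a pseudocount of 1, the differences of Slc25a35, Slc25a10, Slc25a45 and Slc25a40 after peptide were -0.98, -0.93, -0.93 and -0.95, inside 2-fold.

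**Figure D3:**
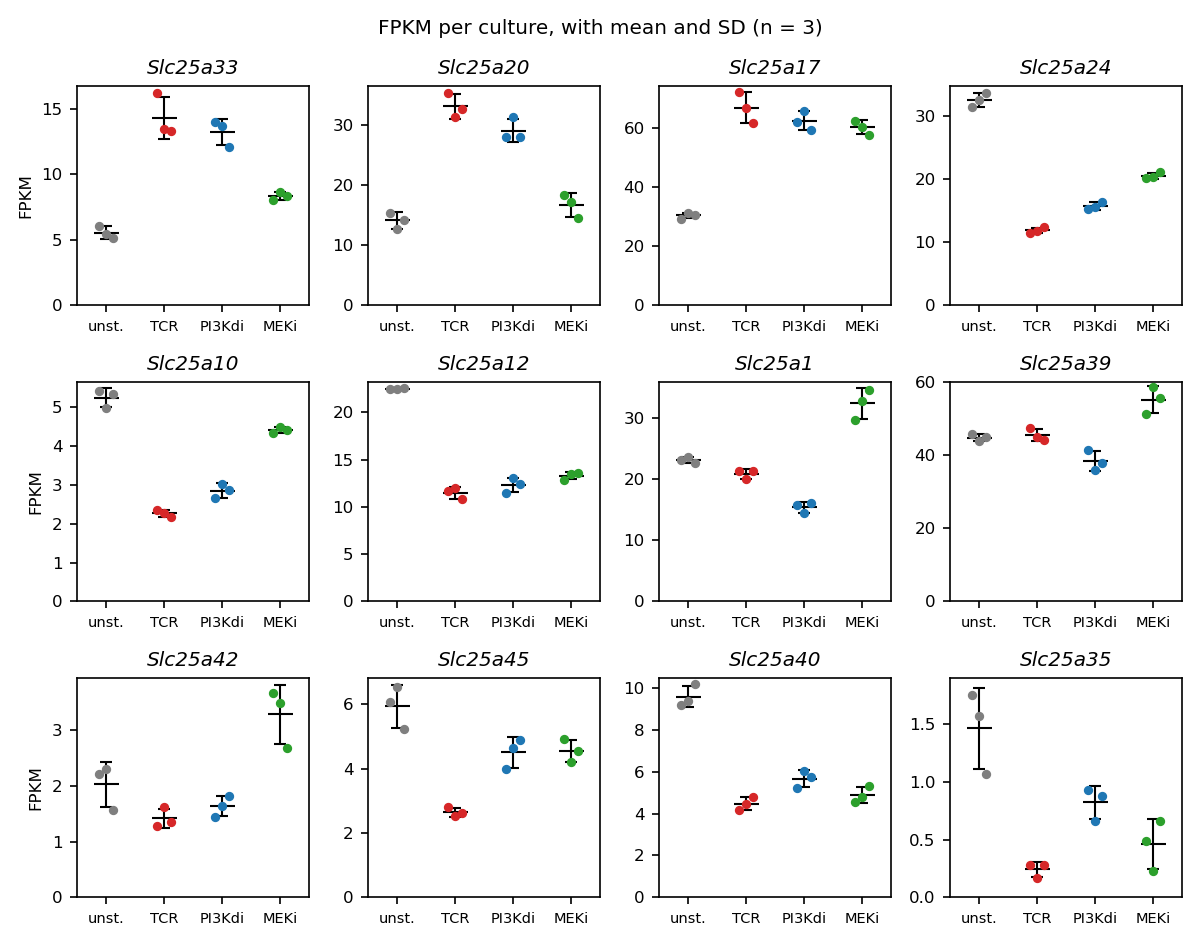
FPKM of 12 members in each culture (points), with the mean and SD of each group (n = 3, black); each axis starts at 0. Slc25a33 and Slc25a20 are high in TCR and PI3Kdi cultures and lower with the MEK inhibitor, Slc25a1 and Slc25a39 are lowest with the PI3K inhibitor and highest with the MEK inhibitor, and Slc25a12 is lower in all 9 retriggered cultures than in the unstimulated ones.

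Inhibition of PI3K p110δ during retriggering changed 10 of the 34 carriers at an adjusted p under 0.05, 6 higher and 4 lower than in TCR cultures, where 25.6% of all genes passed (12.7% higher and 12.8% lower). The count was 6 without TCR replicate 1 and 6 without PI3Kdi replicate 2. The split on the TPM scale, where the median of all genes was higher by 0.19, was 12 higher and 1 lower. More than 2-fold was reached by Slc25a35 alone, beside 1.88% of all genes (0.499% higher and 1.38% lower). Its log2 difference was 1.43 ± 0.29 (adjusted p = 0.00213), the 3 PI3Kdi cultures lay above the 3 TCR cultures, and the same low counts and overlap apply. With a pseudocount of 1 the difference was 0.55, inside 2-fold. In 13 members the TCR and PI3Kdi cultures did not overlap, where 37.6% of all genes did not. The members' median difference was -0.02 and that of all genes 0.02.

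The 5 other carriers that were higher with the PI3K inhibitor were Slc25a45, Slc25a24, Slc25a16, Slc25a40 and Slc25a10. Slc25a45 was higher by 0.74 ± 0.12 (adjusted p = 0.000328) on the log2 scale and Slc25a24 by 0.40 ± 0.06 (adjusted p = 0.000211). Slc25a40 and Slc25a10 were higher by 0.34 and 0.31, with adjusted p = 0.0186 and 0.0294. Under quantile normalisation Slc25a40, Slc25a10 and Slc25a16 did not pass, with adjusted p = 0.0694, 0.136 and 0.0598. These 5 had lower means in TCR than in unstimulated cultures, and because the 2 contrasts share the TCR cultures the direct contrast with unstimulated CTL is given. Slc25a24 was lower there, with a log2 difference of -1.04 ± 0.06 (adjusted p = 9.65e-10), and Slc25a10 and Slc25a45 differed by -0.86 and -0.39.

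The carriers that were lower with the PI3K inhibitor were Slc25a1, Slc25a32, Slc25a37 and Slc25a39. Slc25a1 was at 23.2, 23.7 and 22.7 FPKM in the unstimulated cultures, 21.4, 20 and 21.4 with peptide, 15.7, 14.4 and 16.1 with peptide and IC87114, and 29.7, 32.9 and 34.6 with peptide and PD184252. Slc25a1 exports citrate, the source of cytosolic acetyl-CoA, and lies at chr16:17925223-17928219 on the minus strand. The PI3Kdi cultures were below all other cultures, with a log2 difference from TCR of -0.44 ± 0.07 (adjusted p = 0.000323). Slc25a39 differed by -0.25 ± 0.06 (adjusted p = 0.0109). Slc25a32 and the mitoferrin Slc25a37 differed by -0.26 and -0.25 (adjusted p = 0.0267 and 0.0287). Of these 4, Slc25a1 alone passed on the TPM scale, at -0.26. Of Slc25a33, Slc25a20 and Slc25a17, none passed the test against TCR, and the differences were -0.11, -0.19 and -0.10 with confidence intervals of -0.31 to 0.10, -0.38 to 0.01 and -0.23 to 0.04. All 3 were more than 2-fold above unstimulated CTL on the authors' scale, by 1.25, 1.04 and 1.03 in log2. In that contrast 4 members were called, the other one being Slc25a24, where 14.6% of all genes were (7.16% higher and 7.43% lower). When rescaled to TPM, 1 member was called higher there and 3 lower, and the median of all genes was -0.22.

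Inhibition of MEK changed 17 carriers relative to TCR cultures at an adjusted p under 0.05, 11 higher and 6 lower, where 37.1% of all genes passed (18.9% higher and 18.2% lower). When rescaled to TPM, where the median of all genes was higher by 0.26, the split was 20 higher and 4 lower. The call at more than 2-fold was met by Slc25a42, beside 3.49% of all genes (0.980% higher and 2.51% lower). In 18 members the TCR and MEKi cultures did not overlap, where 48.8% of all genes did not, and the median difference was 0.07 over the members and 0.01 over all genes. Slc25a42 was at 2.22, 2.3 and 1.57 FPKM in the unstimulated cultures, 1.29, 1.62 and 1.35 with peptide, 1.45, 1.65 and 1.82 with peptide and IC87114, and 3.68, 3.49 and 2.69 with peptide and PD184252. Slc25a42 imports coenzyme A into mitochondria. It was 2.31-fold higher than in TCR cultures (log2 difference 1.15 ± 0.17, adjusted p = 0.000128), and the MEKi cultures were above all 9 others. With a pseudocount of 1 its difference was 0.82, inside 2-fold. Slc25a17, the peroxisomal coenzyme A carrier, differed by -0.15 (95% confidence interval -0.28 to -0.02) and did not pass, and the ratio of Slc25a17 to Slc25a42 was 41.1 to 55.8 in TCR and 17 to 21.4 in MEKi cultures.

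Slc25a20 and Slc25a33 had the 2 lowest log2 differences with the MEK inhibitor. Slc25a20 differed by -0.99 ± 0.09 (adjusted p = 1.56e-06), a 1.98-fold difference of the means just inside the threshold, and its MEKi cultures overlapped the unstimulated ones, from which they differed by 0.24 ± 0.09 (adjusted p = 0.038), or by 0.09 (adjusted p = 0.444) on the TPM scale. Slc25a33 differed by -0.76 ± 0.10 (adjusted p = 2.81e-05) and its MEKi cultures lay between the unstimulated and the TCR cultures without overlap. Slc25a14 and Slc25a32 differed by -0.54 and -0.53, with adjusted p = 0.0011 and 0.000143. Slc25a13 differed by -0.39 (adjusted p = 0.00978), and Slc25a5 by -0.29 (adjusted p = 0.00106), and neither passed on the TPM scale, at -0.14 (adjusted p = 0.314) and -0.03 (adjusted p = 0.603).

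Of the carriers that were higher with the MEK inhibitor, Slc25a10, Slc25a24 and Slc25a45 had fallen more than 2-fold after peptide. Slc25a10 was higher by 0.93 ± 0.10 (adjusted p = 5.42e-06), Slc25a24 by 0.78 ± 0.06 (adjusted p = 1.90e-07) and Slc25a45 by 0.76 ± 0.12 (adjusted p = 0.000151), and in each gene the MEKi cultures were above the TCR cultures. Against unstimulated CTL they differed by -0.24, -0.66 and -0.37 on the log2 scale. Slc25a40, which had fallen as well, differed from TCR by 0.13 (95% confidence interval -0.08 to 0.33) and was not past the test. Its TPM value of 0.38 (adjusted p = 0.00794) did pass. Slc25a1 rose by 0.63 ± 0.07 (adjusted p = 6.95e-06), above unstimulated CTL too, by 0.48 ± 0.07 (adjusted p = 2.49e-05). Slc25a22, Slc25a28, Slc25a39, Slc25a36 and Slc25a12 were higher by 0.41, 0.29, 0.28, 0.26 and 0.21. Of all members, Slc25a35 was the only one called against unstimulated CTL, at -1.54, beside 13.4% of all genes (6.95% higher and 6.46% lower), and Slc25a17 was just inside 2-fold at 0.98.

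**Figure D4:**
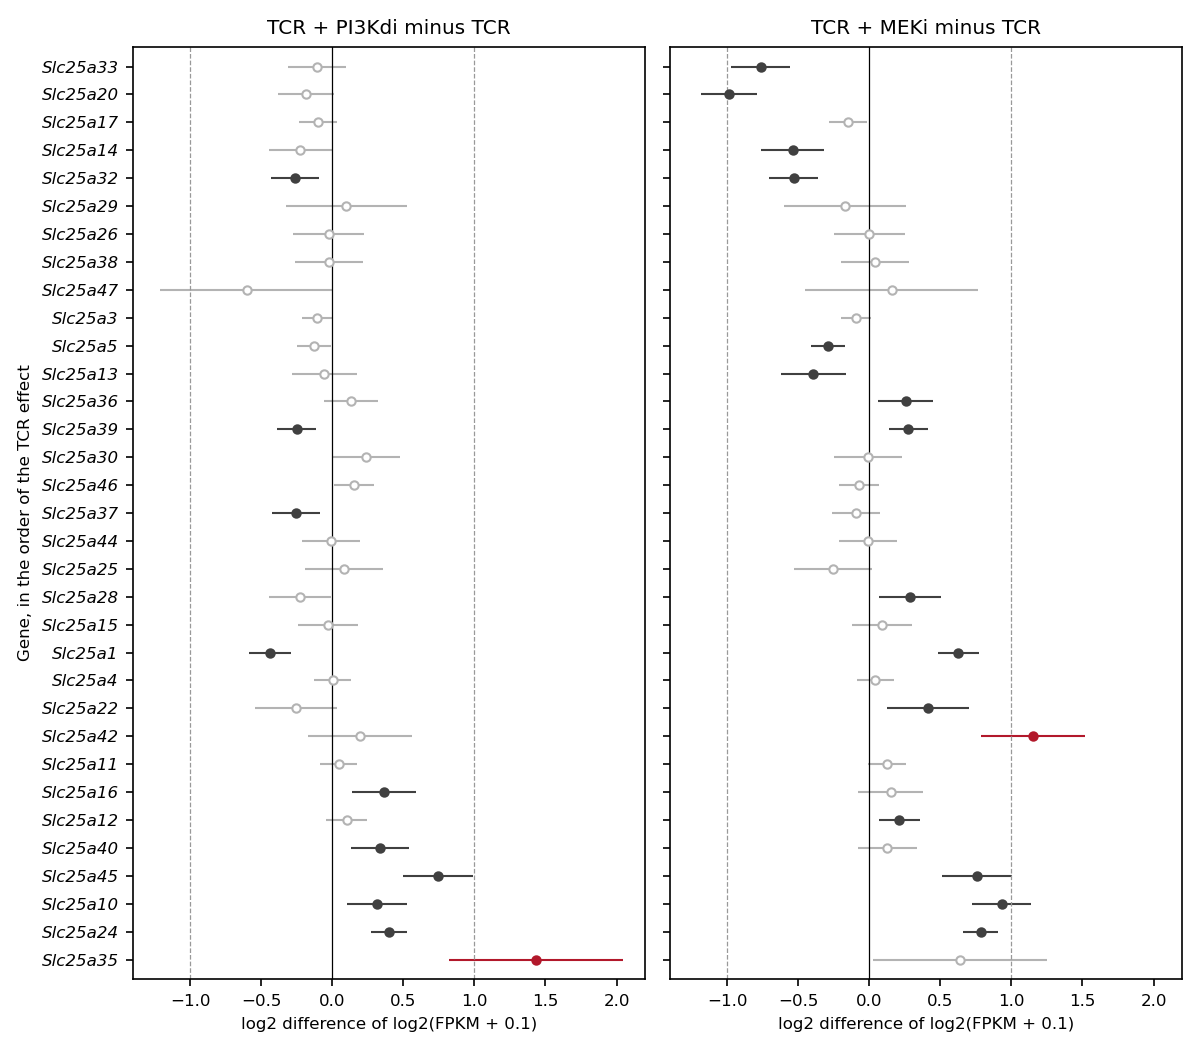
Log2 difference of log2(FPKM + 0.1) from TCR cultures with the PI3K inhibitor (left) and the MEK inhibitor (right), with 95% confidence intervals, 33 genes in the order of the TCR effect. Filled points passed an adjusted p of 0.05 and red points also exceed 2-fold (dashed lines); Slc25a1 and Slc25a39 lie left of 0 in the left panel and right of 0 in the right one, and both panels share the TCR cultures.

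Compared directly, the inhibitors differed in 15 carriers, 8 higher and 7 lower with the MEK inhibitor, where 28.9% of all genes differed (14.5% higher and 14.4% lower), and on the TPM scale in 9 and 2. The number lower was 2 without PI3Kdi replicate 2 and 3 without MEKi replicate 1 or MEKi replicate 3. Slc25a1 was the member called, beside 3.09% of all genes (1.39% higher and 1.71% lower), at 1.06 ± 0.07 (adjusted p = 4.18e-08) or 2.1-fold. Slc25a39 was at 45.8, 43.8 and 44.9 FPKM in the unstimulated cultures, 47.5, 44.9 and 44.2 with peptide, 41.4, 35.9 and 37.9 with peptide and IC87114, and 51.4, 58.7 and 55.6 with peptide and PD184252. Slc25a39 was higher with the MEK than with the PI3K inhibitor by 0.52 ± 0.06 (adjusted p = 2.61e-05), and the 2 groups lay on either side of the TCR and unstimulated cultures. Slc25a42, Slc25a22, Slc25a10, Slc25a28 and Slc25a24 were higher with the MEK inhibitor by 0.95, 0.67, 0.62, 0.52 and 0.38. Slc25a20 differed by -0.80 ± 0.09 (adjusted p = 1.46e-05) and Slc25a33 by -0.66 ± 0.10 (adjusted p = 0.000119). Smaller differences in the same direction were seen for Slc25a13, Slc25a14, Slc25a32, Slc25a46 and Slc25a5, between -0.34 and -0.16, none of which passed on the TPM scale. Slc25a45 did not differ beyond its error, at 0.02 (95% confidence interval -0.23 to 0.27). In 19 members the 2 inhibitor groups did not overlap, where 43.6% of all genes did not. The inhibitors were used at different doses, 10 and 2 µM, and act on different kinases.

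Set against unstimulated CTL, carriers differed in both directions in the presence of an inhibitor too. With the PI3K inhibitor 9 members were higher and 14 lower at an adjusted p under 0.05, where 62.5% of all genes passed (31.7% higher and 30.8% lower), and 25 members did not overlap, where 66.0% of all genes did not. The TPM split was 4 higher and 18 lower. All 3 dicarboxylate and tricarboxylate carriers were among the 14, Slc25a1 with a log2 difference of -0.59, Slc25a10 of -0.86 and Slc25a11 of -0.44. Both mitoferrins were lower as well, Slc25a28 by a log2 difference of -0.36 (adjusted p = 0.00686) and Slc25a37 of -0.29 (adjusted p = 0.00501). With the MEK inhibitor 12 members were higher and 10 lower, where 59.6% of all genes passed (28.9% higher and 30.7% lower), and 22 members did not overlap, where 66.7% of all genes did not; the TPM split was 7 and 14. Of the 10 carriers of nucleotides and cofactors 7 were higher there, among them Slc25a42 at 0.68 and Slc25a39 at 0.30. The aspartate and glutamate carrier Slc25a12 stayed low in both, at -0.86 and -0.75, and so did Slc25a40, at -0.75 and -0.96. These contrasts and the one after peptide share the unstimulated cultures.

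Slc25a15, Slc25a30, Slc25a44 and Slc25a47 passed the test in none of the 6 contrasts on the authors' scale. On the TPM scale the first 3 passed after peptide, at -0.55 (adjusted p = 0.000192), -0.40 (adjusted p = 0.00922) and -0.51 (adjusted p = 0.000551). Slc25a30 lay between 9.73 and 15.1 FPKM, Slc25a44 between 8.69 and 11.2 FPKM and Slc25a15 between 5.32 and 6.91 FPKM over the 12 cultures. Slc25a47 lay between 0.55 and 1.53 FPKM, where low counts widen the interval (after peptide -0.33 to 0.88 on the log2 scale). Slc25a25 passed on the authors' scale only between MEKi and unstimulated cultures, at -0.37 (adjusted p = 0.022), with overlapping cultures. Rescaled to TPM, it passed after peptide too, at -0.52 (adjusted p = 0.00306).

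Of the genes that import the carriers, nearly all were higher after peptide on the authors' scale. Carriers are made in the cytosol, handed by Tomm70a and the Tomm40 pore to the small Timm chaperones of the intermembrane space, and inserted by the Timm22 complex. Of 16 genes in this list 15 rose at an adjusted p under 0.05, where 33.6% of all genes were higher, with Timm10 past 2-fold at 1.11 and Tomm5, Timm9 and Tomm40 at 0.96, 0.75 and 0.61, and a median of 0.51 beside -0.01 in all genes. When rescaled to TPM 5 rose and 3 fell and the median was 0.10, and after quantile normalisation 12 rose. Relative to TCR cultures 8 were lower with the PI3K inhibitor (median -0.20) and 10 with the MEK inhibitor (median -0.27), and 0 were higher, where 12.8% and 18.2% of all genes were lower. On the TPM scale the medians were -0.01 and -0.01, with 3 lower and 2 higher respectively.

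**Figure D5:**
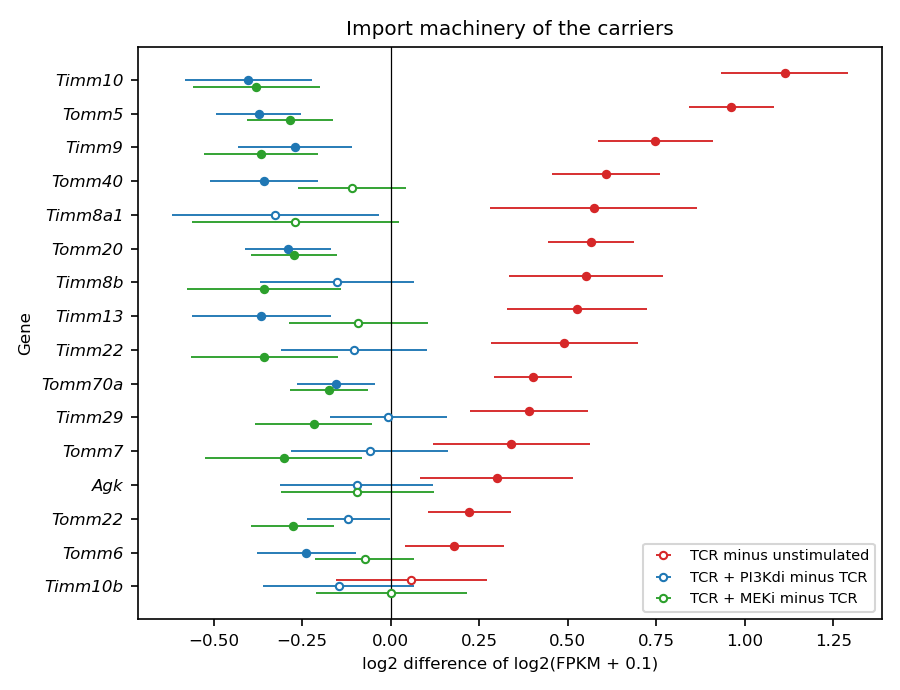
Log2 difference of log2(FPKM + 0.1) of the 16 import genes after peptide (red) and with the PI3K (blue) and MEK (green) inhibitors relative to TCR, with 95% confidence intervals; filled points passed an adjusted p of 0.05. The red points lie to the right of 0, Timm10 highest; on the TPM scale Tomm70a, Tomm22, Tomm6, Tomm7, Timm29, Agk and Timm10b lie below 0.

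Of 19 other mitochondrial transport genes, 0 rose and 9 fell after peptide at an adjusted p under 0.05 (median -0.16), where 33.6% of all genes were higher and 34.9% lower, and 16 fell on the TPM scale. The serine carrier Sfxn1 fell by 0.77 on the log2 scale. None exceeded 2-fold. Among 5 members of the carrier family under other symbols, Ucp2 and Mcart1 rose by 0.55 and 0.92, Mcart6 and Mtch1 fell by 0.95 and 0.32, and Ucp2 fell by 0.53 with the MEK inhibitor. Of 28 partner enzymes 9 rose and 10 fell after peptide, shares near the 33.6% and 34.9% of all genes, and on the TPM scale 3 rose and 20 fell. Mthfd2, of the mitochondrial folate pathway that Slc25a32 supplies, was the one called higher, at 1.14. Gclm of glutathione synthesis, Fech of haem synthesis and Crat were called lower, at -1.57, -1.11 and -1.02. Beside the citrate carrier Slc25a1, Acly, which cleaves the exported citrate, fell by 0.36 on the log2 scale with the MEK inhibitor, where Slc25a1 rose; on the TPM scale Acly did not pass, at -0.10 (adjusted p = 0.154).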

How the data were processed

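RNA was sequenced paired-end from 12 CTL cultures, 3 in each of 4 groups given by the labels. The deposited values are FPKM: per the labels and the study's methods, the authors aligned reads with STAR 2.4.2a to mm10, counted them per RefSeq gene with Subread 1.5.0, filtered low genes, and scaled by TMM in edgeR over exon length. Whether counting used strand is not stated, and the per-gene counts were not used here. Depth was estimated from 68 to 117 low values per library, as the depth that brought them closest to whole reads. At that depth 63.5 to 77.2% of these values lay within 0.15 of a whole read. The share by chance is 30% only for a depth fixed beforehand, so the excess does not test the estimate.

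All 11022 genes were fitted with limma 3.58.1 in R 4.3.3 (4 group means, 6 contrasts, trended empirical Bayes) on log2(FPKM + 0.1), so that fold changes of low genes are understated. Calls required more than 2-fold and a p under 0.05 after Benjamini-Hochberg adjustment. Folds printed are ratios of group means. The study itself used voom on counts. Genes were named where called in any contrast, where among the 3 smallest adjusted p, or as paralogue pairs, and the others by role. Members and lists were chosen with earlier results of these data known. Tested on simulated data, the script recovered every changed gene at the smaller of 2 spreads and missed some at the larger, for which the limit set on recovery was dropped after that result was seen.

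Same-numbered cultures deviated together (r above 0.1 in every pair over 9899 genes) in PI3Kdi against TCR (0.45, 0.38 and 0.24), MEKi against TCR, MEKi against PI3Kdi and MEKi against unstimulated cultures, and not in the other 2 contrasts. The labels do not say whether a number marks a mouse, whereas the study's methods name mice as the source of the biological replicates. These correlations were not set against those of differently numbered cultures. The main fit did not pair cultures. Alternatives were the pseudocount, a filter on low values, other scalings, the fold threshold, the replicate block and leaving out each culture. Sequences came from RefSeq (GRCm38.p6). Python 3.11.15, NumPy 2.4.6, pandas 2.3.3 and matplotlib 3.10.9 were used. Of the members and listed genes, 2 entered the fit and the counts but are not reported by name here.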

Additional observations from a re-analysis of the deposited data

Results flagged for a closer look

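Slc25a1, the citrate carrier, was picked out because the inhibitors moved it in opposite directions relative to TCR cultures. The log2 differences were -0.44 (PI3K inhibitor) and 0.63 (MEK inhibitor), and 1.06 between the inhibitors. Slc25a39, a glutathione carrier, was picked out in the same way, at -0.25 and 0.28, and 0.52 between the inhibitors. In both genes the difference between the inhibitors follows from the opposite moves that led to the choice, so it adds no separate support. All 3 MEKi cultures of Slc25a1 were above all 3 PI3Kdi cultures. Of all genes, 43.6% had no overlap between these groups, in either direction. The share of all genes moved in opposite directions in this way is not given here. On the TPM scale the difference of Slc25a39 between PI3Kdi and TCR cultures was -0.07 (limma, adjusted p = 0.376) and that of Slc25a1 was -0.26 (adjusted p = 0.0118), so the opposite sign of Slc25a39 did not pass the test there.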

How the results depend on the processing

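With a pseudocount of 1 the number of called carriers was 4 after peptide (8 as reported), 0 with the PI3K inhibitor against TCR (1), 0 with the MEK inhibitor against TCR (1) and 0 with the MEK inhibitor against unstimulated CTL (1). A mean of at least 1 FPKM left out Slc25a35 and gave 0 for the PI3K inhibitor against TCR and 0 for the MEK inhibitor against unstimulated CTL. On the TPM scale, the MEK inhibitor gave 4 against TCR, 2 against the PI3K inhibitor and 2 against unstimulated CTL. With the 2-fold limit inside the test (treat), 3 were called after peptide and 0 in each of the other 5 contrasts. With no fold limit the counts were 22 after peptide, 10 for the PI3K inhibitor and 17 for the MEK inhibitor against TCR, 15 between the inhibitors, and 23 and 22 for the PI3K and MEK inhibitors against unstimulated CTL. The log2 difference of Slc25a5 after peptide reversed to -0.19 on the TPM scale and -0.23 with quantile normalisation. The cause of these changes was not tested.

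Leaving out 1 culture gave 8 to 9 calls after peptide, 1 to 1 for the PI3K inhibitor against TCR, 1 to 2 for the MEK inhibitor against TCR (2 without TCR replicate 2, MEKi replicate 1 or MEKi replicate 2, Slc25a20 being added), 1 to 3 between the inhibitors (2 without PI3Kdi replicate 3 and 3 without MEKi replicate 3), 2 to 4 for the PI3K inhibitor against unstimulated CTL (2 without PI3Kdi replicate 2) and 1 to 3 for the MEK inhibitor against unstimulated CTL (2 without unstimulated replicate 2 and 3 without MEKi replicate 3). At any fold, leaving out 1 culture gave 6 to 10 carriers past the test for the PI3K inhibitor against TCR (10 as reported; 6 without TCR replicate 1 or PI3Kdi replicate 2) and 10 to 18 between the inhibitors (15; 10 without PI3Kdi replicate 2). The replicate block gave 8, 1, 1, 1, 4 and 1 calls in the order above and changed no call of a named gene. Of 857 values of named genes under the alternatives, 830 kept their direction and their call at more than 2-fold. Part of this was fixed in advance, since leaving out a culture of neither compared group cannot change a log2 difference. A gene that was not called also counted as kept where it no longer passed the test. The 830 is therefore no measure of how stable the results are. Depth limits Slc25a35, whose lowest library held about 3 reads.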
